A study of Mus musculus with 384 samples.

Results

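Regulatory T (Treg) cells, a CD4 lineage set by the factor Foxp3 that holds inflammation in check, were sorted from the ear skin of mice, and 10 genes of the cell division cycle were followed in them. The 10 genes were listed by name: the subunits Mcm2, Mcm3, Mcm4, Mcm5, Mcm6 and Mcm7 of the replication helicase, the sliding clamp gene Pcna, the microtubule regulator Stmn1, the topoisomerase Top2a and the proliferation marker Mki67. All 10 were found among the 50556 gene symbols of the count matrix (30597 with a count somewhere). The wells came from ears treated with 5% imiquimod (2 plates of 87 single-cell wells) or with vehicle control (2 plates of 87 single-cell wells) and sorted on day 3 after 3 applications. The labels give no genotype, strain or age. The study used 2 mice per treatment, but plates are not assigned to mice in the labels. Plates therefore served as replicates, and p-values measure the spread between plates, which may be technical. Each plate also held wells of 10 cells (16 in all) and wells without a cell (20 in all), which carry no treatment label. Imiquimod is a Toll-like receptor agonist that gives a psoriasis-like inflammation when put on mouse skin.

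Single-cell wells were kept from 500 detected genes and 10000 counts upwards, which left 38 and 44 cells on imiquimod plates 1 and 2, and 62 and 58 on vehicle plates 1 and 2. Kept wells held 47481 to 5946386 counts, 10-cell wells 710021 to 9159522 and empty wells 0 to 1527760. The deepest empty well, on vehicle plate 2, had 885 genes and was thus above both limits. Every other empty well had fewer than 500 genes. The limits alone therefore do not set every kept well apart from an empty well. Counts are reads without molecular identifiers, and intervals given here cover counting error only. Of the Treg and T cell markers, a median of 3 of 17 was carried by the kept cells with fewer than 3 of the cell cycle genes. Only 14 of these 17 were carried by any kept cell, and Trac, Trbc1 and Trbc2 by none.

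MCM2 to MCM7 form the hexamer that is loaded on origins in G1 and unwinds DNA in S phase. PCNA encircles the new duplex and holds the DNA polymerases. Stathmin, the product of Stmn1, binds free tubulin and is regulated as cells enter mitosis. TOP2A untangles sister chromatids and Ki-67 coats mitotic chromosomes, and both gather from S phase to mitosis. The helicase genes are textbook targets of the E2F transcription factors, while Mki67 and Top2a belong to the later wave of genes held off in resting cells by the DREAM complex, which contacts a promoter element called the CHR. Treg cells can expand when activated.

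The promoters of these early and late genes are shown because the cells described next carried genes of both groups. The sequences are those of RefSeq on GRCm38.p6, an older build than the mm39 of the counts, and run 5′ to 3′ on the strand of the gene over 220 bases, from position -170 to 49 around the annotated start at position 0. Of the 10 genes, 8 had an entry, and Mcm4 and Stmn1 had none. Capitals mark the E2F motif (TTTGGCGC, TTTGCCGC, TTTCGCGC or TTTCCCGC on either strand) in the helicase genes and the CHR motif TTTGAA on either strand in Mki67 and Top2a. The windows are chr1:20820263-20820482, chr8:75109339-75109558, chr1:128359656-128359875, chr5:138171834-138172053, chr11:99024140-99024359 and chr7:135716330-135716549, all on the minus strand except that of Mcm5.
Mcm3: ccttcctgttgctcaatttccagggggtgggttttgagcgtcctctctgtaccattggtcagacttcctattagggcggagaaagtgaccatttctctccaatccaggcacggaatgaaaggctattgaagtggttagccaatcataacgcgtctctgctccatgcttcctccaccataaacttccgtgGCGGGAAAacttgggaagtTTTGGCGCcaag
Mcm5: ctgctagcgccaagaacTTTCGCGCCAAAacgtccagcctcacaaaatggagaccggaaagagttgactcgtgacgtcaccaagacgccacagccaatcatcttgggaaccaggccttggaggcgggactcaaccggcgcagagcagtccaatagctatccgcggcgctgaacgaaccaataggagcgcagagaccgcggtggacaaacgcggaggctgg
Mcm6: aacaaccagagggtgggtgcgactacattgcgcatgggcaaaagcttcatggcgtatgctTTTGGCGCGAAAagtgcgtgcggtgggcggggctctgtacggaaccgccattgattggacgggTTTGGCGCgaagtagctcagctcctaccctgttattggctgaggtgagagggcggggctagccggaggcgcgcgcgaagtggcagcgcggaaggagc
Mcm7: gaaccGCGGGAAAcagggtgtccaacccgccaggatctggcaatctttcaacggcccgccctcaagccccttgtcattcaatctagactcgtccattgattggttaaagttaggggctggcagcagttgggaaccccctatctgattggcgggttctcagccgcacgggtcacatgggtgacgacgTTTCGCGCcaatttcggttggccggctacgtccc
Top2a: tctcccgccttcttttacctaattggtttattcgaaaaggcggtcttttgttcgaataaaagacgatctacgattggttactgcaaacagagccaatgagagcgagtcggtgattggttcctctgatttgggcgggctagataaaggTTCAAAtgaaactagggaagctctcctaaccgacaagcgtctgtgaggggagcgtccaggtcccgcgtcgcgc
Mki67: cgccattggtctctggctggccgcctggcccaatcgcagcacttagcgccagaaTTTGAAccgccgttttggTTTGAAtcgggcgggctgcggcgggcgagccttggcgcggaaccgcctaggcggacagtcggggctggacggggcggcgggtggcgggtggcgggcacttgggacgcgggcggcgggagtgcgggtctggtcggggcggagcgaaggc
The E2F motif stood in 2.26% of the 32851 mouse promoters of 300 bases in the same table, and in those of 4 of the 8 genes. Its leftmost bases lay at positions 19 and 38 in Mcm3, at -153 and -149 in Mcm5, at -110, -106 and -47 in Mcm6, and at -165 and 16 in Mcm7. The pair in Mcm5 and the first pair in Mcm6 overlap, each pair being TTTCGCGC and TTTGGCGC on opposite strands. A second RefSeq start of Mcm7 had no match. The TTTGAA motif stood in 17.9% of promoters and in those of Mki67 (-116 and -98), Top2a (-179, outside the printed window, and -23) and Mcm2 (-70). Pcna held neither motif in its 300 bases. CCAAT, the box bound by NF-Y, stood in 37.4% of promoters and in those of all 8 genes with an entry. A match is a description of the letters and no measure of binding.

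A cell was said to carry a gene at 10 CPM (its counts relative to all counts in the well) or more of it, and to carry several at 3 or more of the 10 genes. Few Treg cells did so under either treatment. On the imiquimod plates, 2 of 38 and 1 of 44 kept cells carried several, against 1 of 62 and 3 of 58 on the plates of vehicle. The shares were 5.26% and 2.27% in imiquimod (exact 95% binomial intervals 0.644 to 17.7% and 0.0575 to 12.0%), against 1.61% and 5.17% in vehicle (0.0408 to 8.66% and 1.08 to 14.4%). The plates of both treatments interleaved, with means of 3.77 ± 2.11% for imiquimod and 3.39 ± 2.52% for vehicle (SD, n = 2 plates each; exact two-sided permutation p = 0.667, the smallest possible being 0.333). The cells fell into separate groups by number of genes carried: 24 and 34 cells of imiquimod plates and 45 and 43 of vehicle plates carried none, 39 carried 1, 10 carried 2, none carried 3, and 7 carried 4 or more. At least 1 of the genes was carried by 36.8% and 22.7% of cells in imiquimod, against 27.4% and 25.9% in vehicle (29.8 ± 9.98% and 26.6 ± 1.10%, exact permutation p = 1). Most carried values were well above the limit, and 86 pairs of a cell and a gene were at 100 CPM or more. Another 20 pairs had counts below 10 CPM, the highest of these at 9.48 CPM, and the lowest value carried was 11.0 CPM.

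The 7 cells were 3 from imiquimod plates and 4 from vehicle plates, and Stmn1 was the only gene of the 10 carried by all of them. Mki67 was carried by 6, Top2a, Pcna and Mcm5 by 5 each, Mcm6 and Mcm7 by 4 each, and Mcm2, Mcm3 and Mcm4 by 3 each. Cell 14 of imiquimod plate 1 carried 7 genes, with 4461 CPM of Mcm3, 2024 of Pcna, 1420 of Stmn1, 1053 of Mki67, 610 of Mcm7, 331.4 of Top2a and 18.6 of Mcm6. Cell 21 of the same plate carried 4, with 2109 CPM of Stmn1, 328.4 of Pcna, 152.1 of Mki67 and 34.7 of Mcm2, and had no count of Top2a. Of the 6 helicase genes, cell 14 carried 3 and cell 21 carried 1.

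Well 18 of imiquimod plate 2 carried 9 of the genes, all but Mcm3. Its levels were 825 CPM of Mcm7, 416 of Mcm6, 312.7 of Mcm4, 207.96 of Stmn1, 201.4 of Mcm5, 164.9 of Pcna, 115.9 of Mcm2, 31.8 of Top2a and 11.0 of Mki67. Its levels of Top2a and Mki67 were the lowest among those of the 7 cells that carried these genes. This well went against its label as a Treg cell in its defining markers. It had no count of Foxp3, Il2ra, Ikzf2, Ctla4, Cd3e, Cd3d, Cd3g or Cd4. It carried 4 of the 17 Treg and T cell markers (Icos at 180.2 CPM, Cd2 at 87.2, Tcra at 63.9 and Tnfrsf4 at 43.0), with 375.8 CPM summed over all 17. It had 5950 CPM of Krt14, a keratin of basal keratinocytes, and carried 4 of 8 keratinocyte markers (6446 CPM summed). It is the only kept well with 3 or more of those markers. Without it, the share of cells carrying several was 2.63 ± 3.72% for imiquimod and 3.39 ± 2.52% for vehicle (SD, n = 2 plates each; exact permutation p = 1), so the sign of the difference turned.

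Cell 44 of vehicle plate 2 carried all 10 genes. Its levels were 851 CPM of Mcm2, 726 of Mcm3, 21.7 of Mcm4, 751 of Mcm5, 841 of Mcm6, 635 of Mcm7, 1042 of Top2a, 324.6 of Mki67, 307.7 of Stmn1 and 210.2 of Pcna. Cell 53 of vehicle plate 1 carried 5 genes, with 2448 CPM of Top2a, 388 of Stmn1, 322.8 of Mki67, 316.8 of Mcm5 and 62.2 of Pcna. Cell 86 of vehicle plate 2 also carried 5, with 1453 CPM of Top2a, 549 of Mcm4, 224.6 of Mki67, 100.7 of Stmn1 and 11.9 of Mcm5. Each of these 3 vehicle cells had a higher level of Top2a than the 2 imiquimod wells of the 7 that carried it.

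Cell 87 of vehicle plate 2 showed another set. It carried 2165 CPM of Mcm3, 1898 of Mcm5, 1275 of Mcm7, 760 of Mcm6 and 332.6 of Stmn1, and had 1.48 CPM of Top2a and no count of Mki67, Pcna, Mcm2 or Mcm4. It was the only cell of the 7 without Mki67. Leaving aside well 18, the other 6 cells carried 7 to 14 of the 17 Treg and T cell markers. Foxp3 was at 42.3 CPM in cell 14 and at 0 in cell 21 of imiquimod plate 1, and at 196.2 to 760 CPM in the 4 vehicle cells. Keratinocyte and neutrophil markers were at 0 in those 6 cells. Of each other list (macrophage and dendritic, mast, B, fibroblast, endothelial, erythroid and melanocyte markers), those 6 cells carried at most 1 gene, with at most 794 CPM summed over a list.

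**Figure D1:**
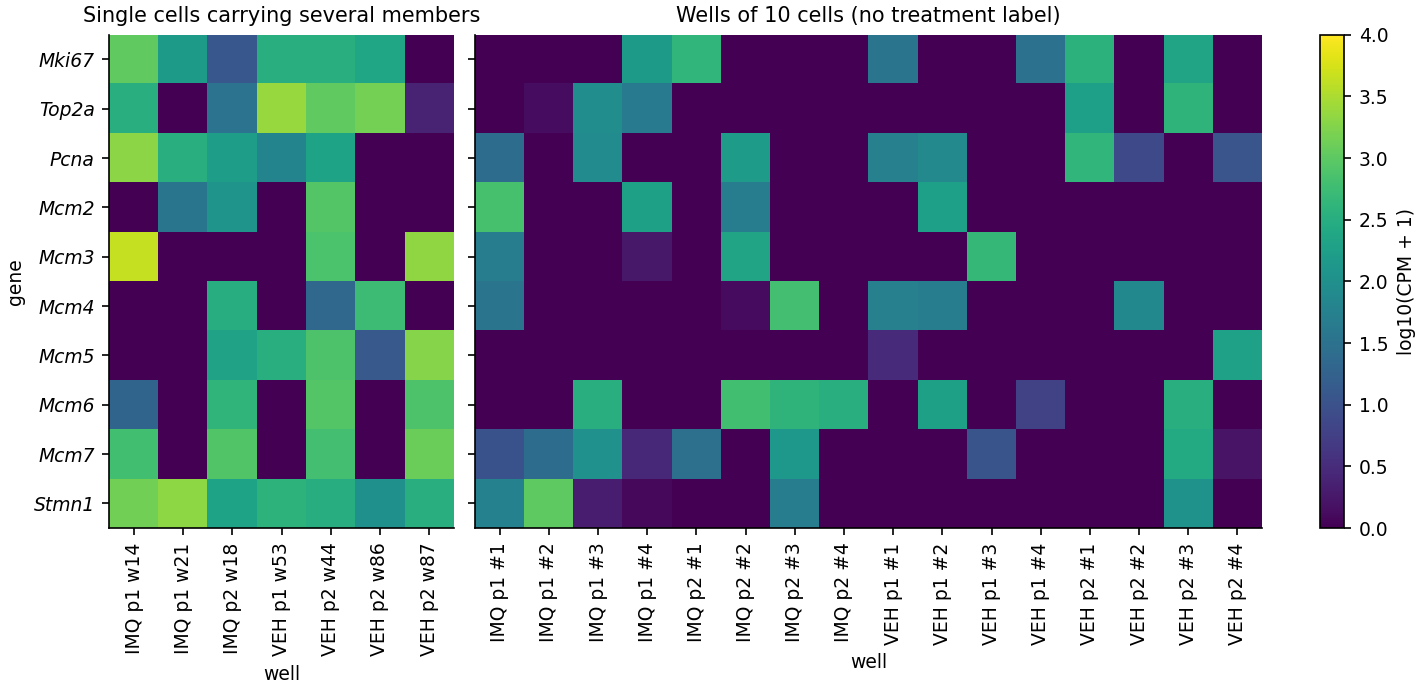
Level of each of the 10 genes, as log10(CPM + 1), in the 7 single cells that carried 4 or more of them (left; IMQ imiquimod, VEH vehicle, p plate, w well) and in the 16 wells of 10 cells (right; named by plate and number, with no treatment label). Stmn1 is coloured in all 7 single cells, and no well of 10 cells carries more than 5 of the genes.

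The cells that carried several were rich in genes. They had 2141 to 8033 genes detected (median 3768), against a median of 1087 in the other kept cells. Their median depth was 2702786 counts, against 1418930 in the others. The share of cells with at least 1 of the 10 genes was 9.88% at 500 to 999 genes, 22.9% at 1000 to 1999, 62.8% at 2000 to 3999 and 62.5% at 4000 or more. In imiquimod it was 14.3%, 28.9%, 87.5% and 100% over these bins, and in vehicle 6.52%, 15.6%, 57.1% and 57.1%. At 2000 to 3999 genes, 2 of 8 imiquimod cells and 2 of 35 vehicle cells carried several. At 4000 or more, 1 of 1 (well 18 of imiquimod plate 2) and 2 of 7 did. Plates were pooled in these bins, and the differences between treatments were not tested. Among the other kept cells, which by definition carried at most 2 of the 10 genes, 41 had 2141 genes or more (median 2756, highest 6168). Their median lay below that of the 7 cells, but the ranges overlapped. On vehicle plate 1, well 71 with 6168 genes carried 2 of the 10 genes and well 85 with 5871 genes carried none. After thinning each cell to 100000 counts, which left out 3 cells of imiquimod plate 1 and 1 of vehicle plate 1, the counts of cells carrying several were 2 and 1 in imiquimod and 1 and 3 in vehicle, as before. The counts were also the same at a limit of 100 CPM without thinning, so thinning could hardly change them. It evens depth and not gene number. A well of 10 cells had at least 4345 genes, and 3 of the 7 cells reached that number (wells 18, 53 and 44 above), out of 7 kept cells that did. Whether a well held more than 1 cell was not tested.

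**Figure D2:**
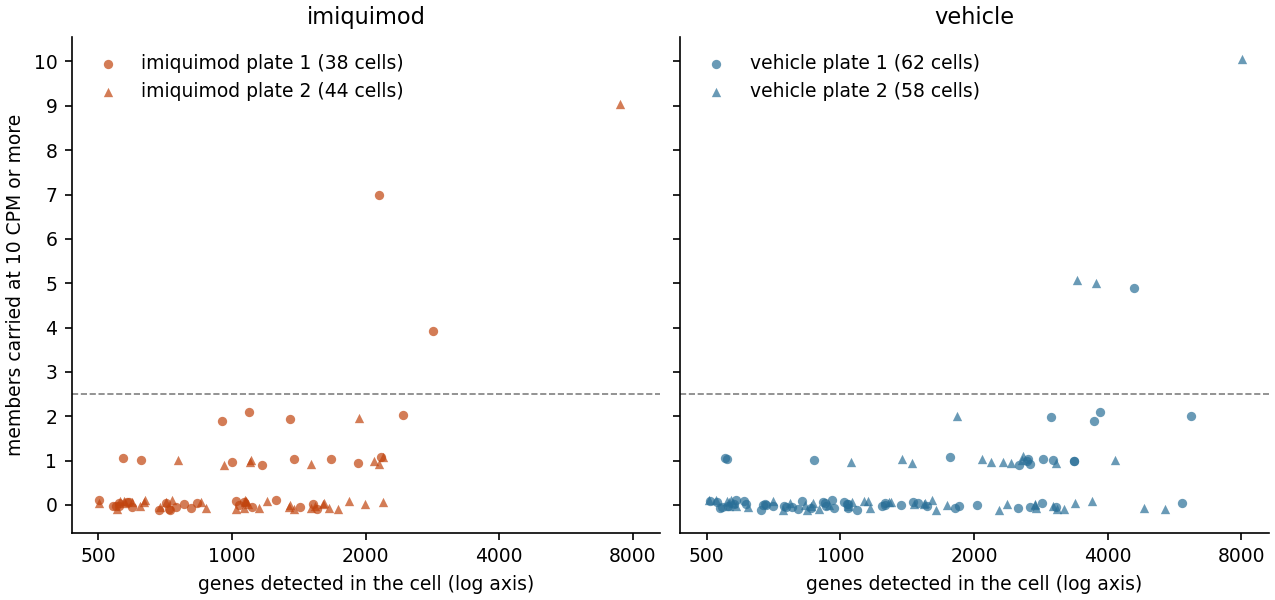
Number of the 10 genes carried at 10 CPM or more (vertical axis, points jittered) against the genes detected in each kept cell (horizontal log axis), with imiquimod on the left, vehicle on the right and a marker shape for each plate. The 7 cells above the dashed line all have more than 2000 genes, and cells with more than 2000 genes also lie at 0, 1 and 2.

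Other genes of replication and mitosis, which took no part in choosing the cells, were carried in numbers by the same 7 cells. Of 64 genes of mitosis and G2/M phase, the 7 cells carried 8 to 61 (median 25), against 0 to 10 (median 1) in the other kept cells and 0 to 10 (median 3) in the 41 others with at least 2141 genes. Of 53 genes of replication and S phase they carried 4 to 39 (median 13), against 0 to 7 in the others (median 1) and in the 41 (median 2). Cell 44 of vehicle plate 2 carried 61 of the mitosis genes and 39 of the replication genes. Cell 53 of vehicle plate 1 carried 48 and 13, cell 86 of vehicle plate 2 carried 25 and 10, and cells 14 and 21 of imiquimod plate 1 carried 21 and 13, and 15 and 4. Well 18 of imiquimod plate 2 had equal numbers, 27 and 27. Cell 87 of vehicle plate 2, the cell with helicase genes and no Mki67, carried 8 and 8, which is within the range of the others for the mitosis list. The share of cells with the gene was higher in the 7 cells than in the 41 for 64 of the 64 mitosis genes and 47 of the 52 replication genes carried by any kept cell, against 42.6% of all 21175 genes carried by any kept cell, a background not matched on level. It was also higher for 16 of 20 genes of G1 cyclins, kinases and E2F factors, 16 of 21 inhibitors and genes of quiescence and 12 of 14 Treg and T cell markers, so other lists stood above that background too. Without cell 44 of vehicle plate 2 it was higher for 58 of 64 mitosis genes, 39 of 52 replication genes and 36.9% of all genes, and without well 18 for 64, 44 and 35.6%. The greater gene number of the 7 cells moves with all of these counts, and its part in them was not tested.

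Some of these genes were found in no other kept cell. The genes named here were chosen after their values were seen. Cdk1, the kinase that drives entry into mitosis, and Kif4, a chromosome kinesin, were each carried by 5 of the 7 cells and by 0 of the others. The chromosomal passenger gene Cdca8 was carried by 4 and the kinase gene Aurkb by 3, and neither by any other kept cell. In all, 11 mitosis genes and 3 replication genes were carried by at least 3 of the 7 cells and by none of the others, which is 17.2% and 5.77% of those carried by any kept cell, against 0.175% of all such genes. Without cell 44 the numbers were 7 and 2 (0.0850% of all genes), and without well 18 they were 9 and 1 (0.0992%). Rrm2, a subunit of ribonucleotide reductase, was carried by 5 of the 7 and by 3 of the others, and the survivin gene Birc5 by 5 and by 1. The tubulin genes Tubb5 and Tuba1b were carried by all 7 cells, and also by 45 and 13 of the others. In empty wells, Birc5 had a count in 1 of 20 wells and Cdk1, Kif4, Cdca8 and Aurkb in none.

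**Figure D3:**
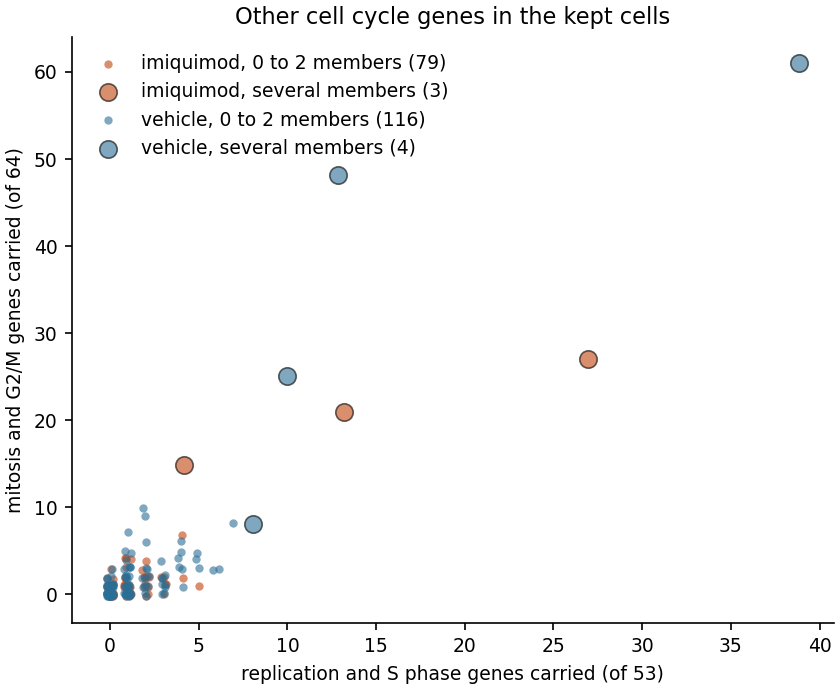
Number of mitosis and G2/M genes (vertical axis) against number of replication and S phase genes (horizontal axis) carried at 10 CPM or more in each kept cell, the 10 listed genes not being counted; points are jittered, large outlined points are the 7 cells carrying several. Apart from the cell at 8 and 8, the large points lie above every other cell on the mitosis axis.

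The same classes were compared on counts summed within a plate, on the plates with at least 2 cells in both classes (imiquimod plate 1 and vehicle plate 2), with the plate as a block. Of 9178 genes tested beside the 10 listed, 0 passed (0%) an adjusted p of 0.05 in edgeR's quasi-likelihood test with Benjamini-Hochberg adjustment; 2.09% had an unadjusted p under 0.05, and DESeq2 called 2134. The sums hold 2 and 3 cells on the side of cells carrying several, and 36 and 55 on the other. The log2 fold change was positive for 39 of 48 tested mitosis genes (median 4.49) and 27 of 40 replication genes (median 2.15), against 27.7% of all genes tested (median -2.38). For G1 cyclins, kinases and E2F factors it was positive for 9 of 16 (median 1.15), and for inhibitors and genes of quiescence for 3 of 17 (median -2.97). None of these genes passed in edgeR.

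By level, the mitosis genes named were Tubb5 (log2 fold change 2.62 ± 1.32 SE), Tuba1b (2.79 ± 2.21), Smc4, a condensin subunit (3.23 ± 6.54), and the histone variant gene H2az1 (2.51 ± 1.88). The replication genes of highest level had negative values, as in Slbp, the histone mRNA binding protein (-4.40 ± 5.93), the helicase regulator Mcmbp (-5.70 ± 8.25), the ligase gene Lig1 (-3.78 ± 8.19) and the licensing inhibitor gene Gmnn (-0.21 ± 4.93), with errors above the values. Over all plates, Slbp was carried by 6 of the 7 cells and by 9.74% of the other kept cells. Mcmbp was carried by 3 and 14.4%, Lig1 by 2 and 4.62%, and Gmnn by 2 and 2.56%. Each was thus carried by a larger share of the 7 cells, against the sign of its fold change. Ccnd2 and Cdk6, the G1 cyclin and its kinase partner, were at -2.21 ± 2.39 and -1.25 ± 2.46, Ccnd3, another cyclin D gene, at -2.45 ± 7.20, and the kinase gene Cdk4 at 1.78 ± 9.10. The inhibitor gene Cdkn1a was at -2.09 ± 3.85 and the antiproliferative genes Btg1 and Btg2 at -0.30 ± 4.40 and -3.33 ± 4.81, and Slfn2, a gene of T cell quiescence, at -2.97 ± 4.65. Each of these genes had an adjusted p of 1 in edgeR. The median log2 fold change of all genes tested in this fit was -2.38, so a negative value alone does not set a gene apart.

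Of the 8 genes per direction of smallest p with the same sign on both plates, the higher were Parp16, Hmgn5, Birc5, Yod1, Vti1b, Dnase1, Troap and Toe1. Among these, Parp16, Hmgn5, Yod1, Dnase1 and Toe1 were below 10 CPM in cells carrying several on both plates. Their levels there ran from 0.328 CPM (Dnase1) to 7.21 CPM (Toe1), both on imiquimod plate 1. Birc5, which the mitosis list also holds, stood at 2841 CPM in cells carrying several, against 78.5 CPM in other cells on imiquimod plate 1, and at 79.4 against 0 CPM on vehicle plate 2 (log2 fold change 9.18 ± 3.60 SE). Troap, a spindle protein gene, stood at 1099 and 34.1 CPM on the 2 plates in cells carrying several, and at 0 in the others. The lower were Dennd4a, Ikzf2, Atp6v0a1, Il1rl1, Tnfrsf1b, Fam151a, Arhgef3 and Cmip. Ikzf2, the Treg factor Helios, stood at 129.4 against 2097 CPM on imiquimod plate 1 and at 796 against 5647 CPM on vehicle plate 2 (-3.42 ± 1.05, unadjusted edgeR p = 0.00109, adjusted p = 1). Over all plates, Ikzf2 was carried by 5 of the 7 cells, by 55.4% of the other kept cells and by 82.9% of the 41 others with at least 2141 genes. Il1rl1, the interleukin-33 receptor gene, had no count in the cells carrying several, against 783 and 614 CPM in the others. Tnfrsf1b, which encodes TNF receptor 2, was at 64.9 against 2226 CPM and at 97.8 against 2027 CPM. None of the 16 passed the adjusted threshold, and the classes also differed in gene number. The median log2 fold change of all genes tested was -2.38.

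Most sightings of the 10 genes lay outside the 7 cells. Of the 56 cells with at least 1 gene, 39 carried exactly 1, and the gene alone was most often Mcm7, in 8 cells. Mcm6 was never carried alone, and its 6 carriers comprised 4 of the 7 cells and 2 cells with 2 genes. In the 10 cells with exactly 2 genes, Mcm4 came with Mcm5 in 2 cells, and the other 8 cells each held a different pair. Mki67 and Top2a were carried together by 5 cells, all among the 7.

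For 6 of the 10 genes, the highest level of any kept cell was found in a cell that carried nothing else of the 10 and had 549 to 1454 genes. Mcm7 reached 45518 CPM (79966 counts) in cell 31 of imiquimod plate 1, which had 624 genes, and that cell gave 99.1% of the plate's Mcm7 counts. Pcna reached 15084 CPM in cell 10 of the same plate, with 1172 genes, and Mcm3 10044 CPM in cell 29, with 1002 genes. On vehicle plate 1, Mcm4 reached 12567 CPM in a cell of 555 genes and Stmn1 8507 CPM in a cell of 549 genes, and on vehicle plate 2 Mki67 reached 8140 CPM in a cell of 1454 genes. The highest cell of Top2a (cell 53), of Mcm5 (cell 87) and of Mcm6 (cell 44 of vehicle plate 2) was among the 7, and that of Mcm2 carried 2 genes. The 7 cells held very unequal parts of the counts. They gave 88.7% of all Top2a counts in kept cells, 68.8% of Mcm6, 54.9% of Stmn1, 38.5% of Mcm2, 32.6% of Mcm5, 23.2% of Mki67, 17.8% of Mcm3, 14.8% of Pcna, 9.46% of Mcm7 and 8.44% of Mcm4.

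The effect of imiquimod on each gene was read first from the share of cells carrying it. Pcna was carried by 7.89% and 9.09% of cells in imiquimod, against 3.23% and 1.72% in vehicle, so the plates did not overlap (8.49 ± 0.846% and 2.47 ± 1.06%, SD, n = 2 plates each). Mcm7 was carried by 7.89% and 9.09% in imiquimod, against 3.23% and 6.90%, and Mcm2 by 10.5% and 2.27%, against 1.61% and 1.72%. Mki67 went the other way, with 5.26% and 2.27% in imiquimod, against 6.45% and 10.3% in vehicle, as did Mcm6 with 2.63% and 2.27%, against 3.23% and 3.45%. For these 5 genes the exact two-sided permutation p was 0.333, which is the smallest that 2 plates against 2 allow, and each share rests on 1 to 6 cells a plate. Shares did not overlap, with both imiquimod plates higher, for 3 of the 10 genes and 6.60% of all genes tested, and with both lower for 2 of the 10 and 37.6% of all. The shares of Top2a, Mcm3, Mcm4, Mcm5 and Stmn1 overlapped between treatments.

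Sums of counts over the kept cells of a plate gave no edgeR call for any of the 10 genes, while DESeq2 called Pcna and Mcm7. Of 14462 genes tested for imiquimod over vehicle, 0 passed (0%) in edgeR's quasi-likelihood test with Benjamini-Hochberg adjustment; 1669 had an unadjusted p under 0.05 and DESeq2 called 3740. Both imiquimod plates were above both vehicle plates for 2 of the 10 genes, Pcna and Mcm7, and in 13.7% of all genes tested. Both were below for 3 of the 10, Top2a, Mcm2 and Mcm6, and in 31.1% of all genes. The median log2 fold change of all genes was -0.26. Fewer cells with a gene and less RNA per cell cannot be told apart in such sums.

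Among the helicase genes, Mcm7 stood at 1726 and 193.2 TMM-normalised CPM in imiquimod, against 133.3 and 50.9 in vehicle. Its log2 fold change of 3.38 ± 1.22 (SE) had an unadjusted edgeR p of 0.0160 and an adjusted p of 0.42. Without the highest cell of each plate its unscaled level was 11.0 and 55.9 CPM in imiquimod, against 69.4 and 30.4 CPM in vehicle, which overlap. In the annotation of GRCm38 the gene overlaps Cops6 and Ap4m1 on the other strand and hosts microRNA genes, and since the strand setting of the counting is not given in the sources used here, its counts are uncertain. Mcm2 stood at 4.71 and 6.45 CPM in imiquimod, against 70.7 and 29.2 in vehicle (-3.16 ± 3.29), while 5 imiquimod cells and 2 vehicle cells carried it. On vehicle plate 1 a single cell held all of its counts (100%), and on vehicle plate 2 99.8%.

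Mcm6 stood at 0.471 and 23.1 CPM in imiquimod, against 36.1 and 45.0 in vehicle (-1.78 ± 3.28). Without the well that carried keratinocyte markers its fold change was -7.40 ± 4.20 and that of Mcm2 was -4.41 ± 3.80, that well having held 99.95% of the Mcm6 counts of its plate. Without imiquimod plate 2 the Mcm6 value was -6.31 ± 4.45. Mcm3 showed the widest ratio between plates of 1 treatment, with 1039 and 0.0107 CPM in imiquimod, against 206.05 and 90.5 in vehicle (1.81 ± 2.20). Only 1 read of Mcm3 was counted in the 44 cells of imiquimod plate 2. Without imiquimod plate 1 the fold change was -13.52 with an adjusted edgeR p of 0.00871, but imiquimod is then 1 plate with that 1 read, and the spread comes from the 2 vehicle plates alone, the lone plate being assumed to vary like them. Mcm4 was at 224.5 and 55.8 CPM, against 118.2 and 52.3 (0.72 ± 1.98), and Mcm5 at 210.6 and 11.2 CPM, against 80.6 and 97.5 (0.32 ± 2.16). Both overlapped between treatments.

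Pcna had the largest fold change of the 10 genes, with 458 and 141.7 TMM-normalised CPM in imiquimod, against 20.4 and 7.20 in vehicle (4.44 ± 1.94, unadjusted edgeR p = 0.0401, adjusted p = 0.42). Single cells gave 82.9% and 41.3% of its counts in imiquimod, and 92.9% and 99.8% in vehicle. Without the highest cell of each plate its unscaled level was 54.2 and 78.2 CPM, against 1.59 and 0.0201 CPM, still without overlap. The pseudogene Pcna-ps2 shares sequence with it, so its counts are uncertain where reads were split. DESeq2 called Pcna (5.01, adjusted p = 0.000298) and Mcm7 (4.02, adjusted p = 0.00289), and edgeR called both when imiquimod plate 2 was left out (adjusted p = 0.0206 for Pcna and 0.00051 for Mcm7). In that fit only the vehicle plates give the spread, and on the imiquimod plate left in a single cell held 82.9% of the Pcna and 99.1% of the Mcm7 counts. Among cells with at least 1000 genes, the fold change of Mcm7 was -1.26.

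Stmn1 was at 256.5 and 37.6 CPM in imiquimod, against 78.9 and 19.9 in vehicle, which overlap (1.57 ± 2.19). Top2a was at 8.39 and 11.5 CPM, against 65.6 and 59.9, without overlap (-2.66 ± 3.05). Its highest vehicle cells were among the 7 cells described above, cell 53 with 87.4% of the counts of vehicle plate 1 and cell 44 with 59.4% of those of vehicle plate 2. Mki67 was at 39.1 and 0.622 CPM, against 38.6 and 108.2, which overlap (-1.89 ± 2.96). Without imiquimod plate 1 the Mki67 value was -6.77 ± 3.52. The adjusted edgeR p of each of the 10 genes was 0.42 or higher, and the SE exceeded the fold change itself in 8 of the 10.

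**Figure D4:**
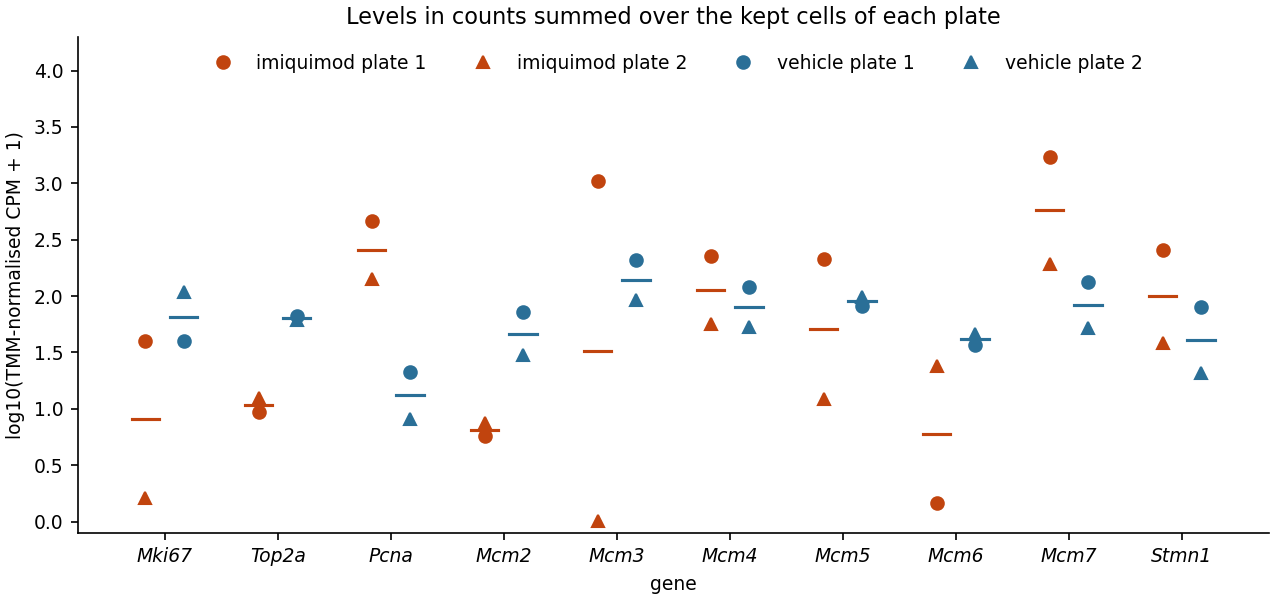
Level of each of the 10 genes, as log10(TMM-normalised CPM + 1), in the summed counts of each plate; points are plates (imiquimod left of vehicle for each gene) and bars are means of the 2 plotted values. Pcna and Mcm7 lie higher and Top2a, Mcm2 and Mcm6 lower on both imiquimod plates, and the gap between the imiquimod plates is widest for Mcm3.

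The other genes of the cell cycle gave no edgeR call between treatments either. DESeq2 called 3 replication genes higher and 8 lower, 1 mitosis gene higher and 11 lower, and 1 G1 gene and 1 inhibitor higher. Of all 14462 genes tested it called 968 higher and 2772 lower, so lower calls were the more frequent among all genes too. With imiquimod reduced to 1 plate, some of these genes passed in edgeR, as did genes outside the lists. The vehicle plates alone then give the spread, so these calls are not read here. Of 48 tested replication genes, 18 had a positive log2 fold change (median -1.02), of 59 mitosis genes 27 (median -0.84), of 17 G1 genes 9 (median 0.61) and of 19 inhibitors and genes of quiescence 11 (median 0.82), against 46.6% of all genes tested. Both imiquimod plates were above both vehicle plates for 8.33% of the replication genes and 6.78% of the mitosis genes, against 13.7% of all genes, and below for 29.2% and 32.2%, against 31.1% of all genes. For G1 genes and inhibitors the imiquimod plates were above for 29.4% and 26.3% (5 of 17 and 5 of 19 genes) and below for 17.6% and 21.1%. Slbp stood at 1065 and 472 TMM-normalised CPM in imiquimod, against 13.0 and 153.7 in vehicle (3.20 ± 1.32, adjusted edgeR p = 0.42). Lig1 stood at 343.9 and 110.6 CPM, against 12.7 and 29.8 (3.42 ± 2.05). Gmnn stood at 425 and 0.236 CPM, against 0.283 and 11.4, which overlap (5.19 ± 3.07). Tubb5 stood at 1026 and 439 CPM, against 300.95 and 335.02 (1.20 ± 0.95). Cdk6 stood at 754 and 575 CPM, against 835 and 577 (-0.09 ± 0.81), and Cdkn1a at 457 and 714 CPM, against 599 and 333.2 (0.33 ± 0.93). Cdk4 was at 1.58 ± 1.80, Ccnd3 at -0.55 ± 1.86 and Slfn2 at 1.60 ± 1.41 on the same log2 scale. Over all 16 genes named from the lists the values ran from -0.55 to 5.19, with adjusted edgeR p of 0.42 or higher.

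The wells of 10 cells all carried at least 1 of the 10 genes, and 9 of 16 carried 3 or more. They carried 1 to 5 genes (median 3), while 3 single cells carried more than 5. The genes of a well may come from different cells, so these are not numbers of cells carrying several. At least 1 of the genes was carried by 27.7% of the kept single cells. In a well of 10 cells, a gene of 1 cell is also diluted by the reads of the others at the same limit of 10 CPM. The most often carried was Pcna, in 7 wells at 10.5 to 429 CPM, then Mki67, Mcm6 and Mcm7 in 6 wells each, Mcm4 in 5, Top2a, Mcm2 and Stmn1 in 4 each, Mcm3 in 3 and Mcm5 in 1. The highest levels there were 1036 CPM of Stmn1, 686 of Mcm2, 640 of Mcm4, 609 of Mcm6, 467 of Mcm3, 435 of Mki67, 429 of Pcna, 404 of Top2a, 281.9 of Mcm7 and 194.6 of Mcm5. Mki67 came with Top2a in 3 of these wells. By plate position, the number of genes carried was 2 to 5 and 1 to 4 in the wells on imiquimod plates 1 and 2, and 1 to 4 and 1 to 5 in those on vehicle plates 1 and 2. The wells carried 5 to 24 of the mitosis genes and 4 to 22 of the replication genes, so no well of 10 cells reached the numbers of cell 44 of vehicle plate 2.

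None of the 20 empty wells had a count of any of the 10 genes. Of these wells, 8 had 10000 counts or more, in which 0 of 8 allows a share of up to 37.5%; the other 12 had at most 2824 counts, 4 of them none, and could hardly show a gene. Of the single-cell wells below the limits on genes and counts (49 and 43 on imiquimod plates, 25 and 29 on vehicle plates), 3 carried 1 of the genes and none carried more.

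By likeness of pattern, the genes nearest to the number of the 10 genes carried included Kdelr2, Hmgb2, Scaf11, Ptma, H2az1, Tax1bp1 and Cd3g. Their mean within-plate Spearman rho over the kept cells was 0.49 for Kdelr2, 0.43 for Hmgb2 and 0.43 for Cd3g. The number of genes detected had a rho of 0.47 by the same measure, so 1 gene was nearer than gene number itself. That gene, Kdelr2, is the highest of 3815 candidate genes, so its lead over the single value of gene number carries little weight. By plate, Cd3g was at 0.0908 on imiquimod plate 2 and at 0.510 to 0.586 on the other plates. Hmgb2, a chromatin protein, was carried by 6 of the 7 cells and by 10 of the others, and H2az1 by 6 and by 25. Kdelr2, a receptor that returns proteins to the endoplasmic reticulum, was carried by 4 of the 7. These correlations run over cells that share plates and differ in depth.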

How the data were processed

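Plate-based RNA sequencing had been done on 384 wells. The deposited values are raw counts of reads per gene and well. Per the submitters' processing notes, Trimmomatic 0.39, STAR 2.7.3a and SAMtools 1.12 were used with the mm39 genome. How reads were counted, the strand setting and annotation are not given in the sources used here.

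Wells were grouped from the labels. The listed genes, the pathway lists and the tests were chosen with earlier results of these data known. Counts of kept cells were summed per plate and tested with edgeR 4.0.16 (default expression filter, TMM, Benjamini-Hochberg over all genes, threshold 0.05). Plate sums held 67319087 and 99183184 counts for imiquimod and 90448592 and 99396458 for vehicle. SE is the absolute log2 fold change divided by the square root of F. Shares were compared by exact two-sided permutation of plates with scipy 1.17.1. The fits were also run on simulated data, and the outcome is not given here. Doublets were not called, as single cells had been sorted. Genes were named by rule: the 10 genes, the 4 of highest level per pathway list when none passed, the 8 of smallest p per direction for the cell classes and the 8 most alike; uncharacterised, ribosomal, mitochondrial and variable receptor genes were left out. A gene that the likeness rule names is not reported here. Alternatives comprised DESeq2 1.42.0 and its size factors, limma 3.58.1 on the mean log2(CPM + 1), no filter, other limits on cells, thinning, sums without the highest cell per gene and plate, and leaving out each plate. Leaving out the well with keratinocyte markers, or cell 44 of vehicle plate 2, was chosen after seeing the data.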

Additional observations from a re-analysis of the deposited data

Results flagged for a closer look

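In data outside the comparison of treatments, 9 of the 16 wells of 10 cells carried 3 or more of the 10 genes, while no empty well had a count of any. Of the single-cell wells below the limits on genes and counts, 7 had a count of at least 1 of the genes, 3 of them at 10 CPM or more.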

How the results depend on the processing

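The imiquimod minus vehicle difference in the share of cells carrying several genes was 0.375 percentage points and changed sign with the definition: -0.941 at 5 or more genes, -0.941 without Stmn1 and Pcna, -0.431 at any count or at 1 CPM, -0.581 over all single-cell wells with a count and -0.761 without the well with keratinocyte markers. It was larger, at 2.69, for 2 or more genes and at 1.83 in cells of at least 1000 genes. It ran from -1.40 to 2.16 when 1 plate was left out. For the treatment, the count of genes called was 0 in edgeR, 3740 in DESeq2, 9 without an expression filter, and 0 to 794 when 1 plate was left out; of the 10 genes, 0 were called in edgeR, 2 in DESeq2 and 0 to 2 without 1 plate. For the cells carrying several, DESeq2 called 2134 genes and every edgeR alternative 0. Of the 10 genes' fold changes under the alternatives, 4 gained a call with the same sign (Pcna and Mcm7), 11 turned, 1 of them with a call (Mcm3), and the rest kept sign and call. On the mean log2(CPM + 1), Mcm2 was at 0.15, Mcm3 at -0.17 and Mcm5 at -0.011. When 1 plate was left out, Mcm3 ran from -13.52 to 2.90, Mcm4 from -0.52 to 1.49, Mcm5 from -2.89 to 1.35 and Stmn1 from -0.30 to 2.80, each lowest without imiquimod plate 1; Mki67 ran from -6.77 to -0.79, Mcm6 from -6.31 to -0.70 and Mcm7 from 1.16 to 4.32. A lone plate was then assumed to vary like the other treatment's 2. Thinned, Mcm4 was at -1.18 and Mcm5 at -0.48; without the highest cells Mcm5 was at -0.98, and among cells of at least 1000 genes Mcm7 at -1.26. The share difference turned for Mcm2 at 100 CPM (-0.532) and for Mcm4 at any count (-0.454). The causes were not tested. DESeq2's size factors put the median log2 fold change of all genes at 0.11, against -0.26 with TMM. No paired analysis was possible because the plates of both treatments were not paired by any label. Leaving out a plate in the comparison of cell classes would leave no residual degrees of freedom and was not run. With 2 plates a treatment and 7 cells carrying several, differences in their share of the size seen between plates could not be told from plate spread.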
